A study of Mus musculus with 17 samples.

Results

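miR-23a, miR-27a and miR-24 are 3 microRNAs (miRNAs) cut from 1 short primary transcript. Their 3p strands, mmu-miR-23a-3p, mmu-miR-27a-3p and mmu-miR-24-3p, were taken by name from a serum PCR panel and make up 3 of its 357 miRNA assays. The 17 sera were each taken as from a separate mouse. They came from 3 wild-type FVB/N mice called healthy, 7 transgenic AT-ATX mice without tumors (tumor-free) and 7 transgenic AT-ATX mice with spontaneous tumors (tumor). AT-ATX mice carry an Autotaxin transgene. Autotaxin is the secreted enzyme that makes lysophosphatidic acid, a signaling lipid. The promoter of the transgene, the strain background of the transgenic mice, ages and tumor sites are not stated in the sources used here, nor is any batch. Serum holds no tissue of its own, so each value mixes RNA released by many cell types, and fewer releasing cells cannot be told apart from less RNA released per cell.

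A primary transcript of this kind is folded into hairpins, which Drosha and Dicer cut into short duplexes. One strand of each duplex is loaded into Argonaute and pairs with messenger RNAs mainly through its seed, bases 2 to 8. Vertebrates carry a second copy of the cluster, encoding miR-23b, miR-27b and another miR-24. Both copies are known from blood, endothelial and muscle cells. The miR-23 and miR-24 families are studied in blood cell and muscle differentiation, and the miR-27 family in fat cell differentiation. miR-23a-3p is also the usual reference of a serum hemolysis index, since it is held to change little when red blood cells break.

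In RefSeq's annotation of GRCm38.p6 the 3 hairpins lay on the plus strand of chromosome 8, between positions 84208518 and 84208921, a span of 404 bases. No gene other than miRNA genes overlapped them, and the next such gene at higher positions, Zswim4, lay 2020 bases away. The second copy lay on the plus strand of chromosome 13, between 63300484 and 63301275, inside the span of the protein-coding gene Aopep. The hairpins of the first copy are shown because the members are neighbors in them, with each 3p strand in capitals.
Mir23a: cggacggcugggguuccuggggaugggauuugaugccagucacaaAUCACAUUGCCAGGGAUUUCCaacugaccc
Mir27a: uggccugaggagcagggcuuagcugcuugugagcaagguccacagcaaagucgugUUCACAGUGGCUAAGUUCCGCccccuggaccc
Mir24-2: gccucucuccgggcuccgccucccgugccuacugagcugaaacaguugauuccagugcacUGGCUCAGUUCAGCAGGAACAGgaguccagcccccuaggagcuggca
Gaps of 79 and 56 bases separated these hairpins.

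The mature strands follow 5′ to 3′ with the seed in capitals, and miR-27b-3p is added because the results turn on the comparison of both copies.
miR-23a-3p: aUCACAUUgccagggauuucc
miR-27a-3p: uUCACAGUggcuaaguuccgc
miR-27b-3p: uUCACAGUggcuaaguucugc
miR-24-3p: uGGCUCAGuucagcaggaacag
miR-27a-3p and miR-27b-3p share their seed and differ by C19U, counted from the 5′ end of miR-27a-3p. The seeds of miR-23a-3p and miR-27a-3p share their first 5 of 7 bases. The mature miR-24-3p of both copies is identical, so its assay reads both loci together. Of the other strands of both copies the panel held 4: miR-23b-3p, miR-27b-3p, miR-27a-5p and a rat assay of miR-24-1-5p.

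Abundance was read as the quantification cycle (Ct), the PCR cycle at which signal crosses a threshold. The more template a serum held, the lower the Ct, and each step of 1 cycle stands for about a factor of 2. All 3 members were detected in all 17 sera. miR-23a-3p, the first hairpin's product, had Ct values of 21.1, 24.3 and 24.7 in the 3 wild-type sera. It ranged from 22.8 to 24.9 around a median of 23.5 in tumor-free sera and from 21.7 to 25.2 around 23.3 in tumor sera. miR-27a-3p had Ct values of 24.40, 26.98 and 28.41 in wild-type sera, 25.9 to 28.4 (median 26.8) in tumor-free sera and 24.9 to 28.6 (median 26.8) in tumor sera. All groups overlapped for both. miR-24-3p had Ct values of 21.3, 23.6 and 24.7 in wild-type sera, 23.2 to 25.2 (median 23.9) in tumor-free sera and 21.9 to 25.1 (median 23.8) in tumor sera, again with overlap. Primer efficiency differs between assays, so the Ct of one member was not read as an amount against another. Wild-type replicate 1 and tumor replicate 7 had the lowest Ct of each member. These sera also had the lowest mean Ct over the panel, which ranged from 28.1 to 31.7 in the other 15 sera.

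**Figure D1:**
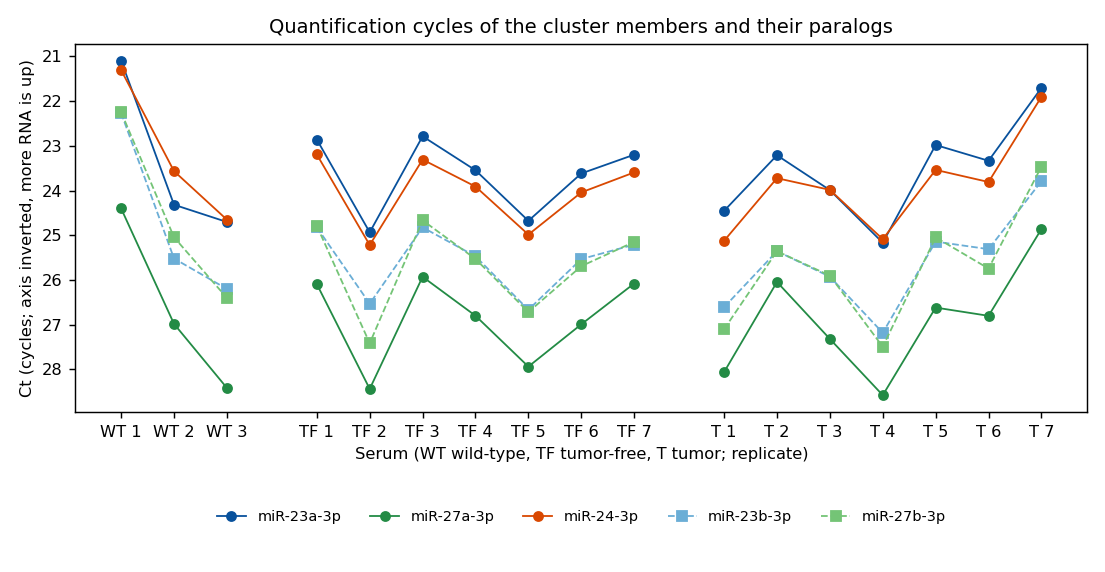
Ct in cycles (axis inverted, more RNA upward) of the 3 members (circles, solid lines) and of miR-23b-3p and miR-27b-3p (squares, dashed lines) in each of the 17 sera, ordered by group and replicate. Lines only join the sera of a group to guide the eye. The 5 assays rise and fall together from serum to serum, and miR-27a-3p lies farther from miR-27b-3p in the 3 wild-type sera than in the 14 transgenic sera.

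The members moved together closely. The Ct difference between miR-23a-3p and miR-27a-3p, neighbors in the transcript, had an SD of 0.29 cycles over the 17 sera. That of miR-23a-3p and miR-24-3p was 0.34, and that of miR-27a-3p and miR-24-3p was 0.36. Over all 31626 pairs of the 252 miRNA assays detected in every serum, the median SD was 1.37 cycles. Only 7, 21 and 32 of these pairs had a smaller SD than the 3 member pairs, in the same order. These figures describe the panel, and assays of one serum share its RNA and plates. The pairs were not matched for Ct. Mean Ct was 23.6 for miR-23a-3p, 26.8 for miR-27a-3p and 23.8 for miR-24-3p. The panel mean Ct was on average 28.4, 29.4 and 29.8 in wild-type, tumor-free and tumor sera. The part of abundance in these SDs was not tested.

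**Figure D2:**
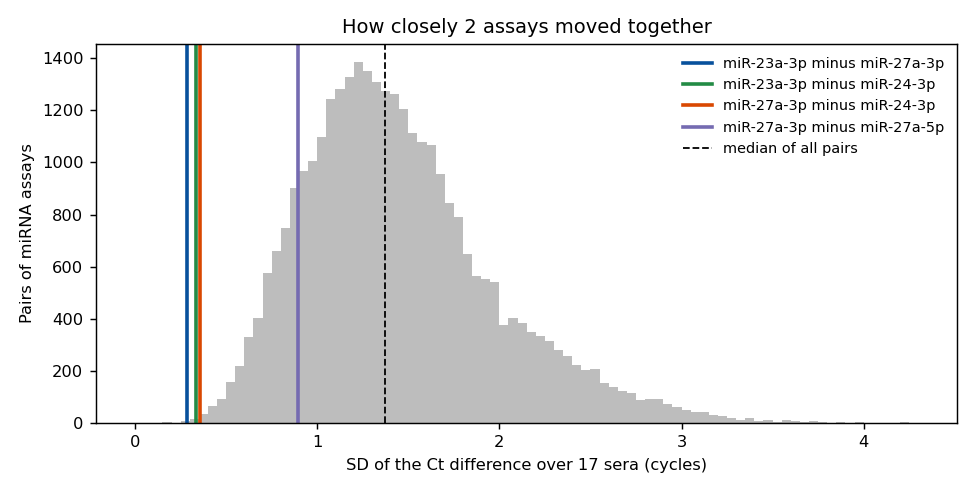
Histogram of the SD of the Ct difference (cycles, horizontal axis) over 17 sera for all 31626 pairs of miRNA assays (number of pairs, vertical axis). The 3 member pairs, at 0.29 to 0.36 cycles, sit in the far left tail, below the median of 1.37 (dashed), while miR-27a-3p with its own other arm, miR-27a-5p, lies at 0.89.

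To take out the amount of RNA per serum, each assay was also given as a level in log2 units: its Ct was subtracted from the mean Ct of those 252 assays. Over the 17 sera with group means taken off, the levels of miR-23a-3p and miR-24-3p correlated with r = 0.95 (permutation p = 1e-05, which is the floor of 100000 reorderings, adjusted p = 1.5e-05). Spearman's rho was 0.95 (permutation p = 1e-05, adjusted p = 2e-05), and r without the 2 farthest sera was 0.92. These were the sera farthest from the median of the first-named miRNA, group means taken off, and were chosen anew for each relation. For miR-27a-3p and miR-24-3p r was 0.92 (permutation p = 3e-05, adjusted p = 3.6e-05), rho was 0.94 (permutation p = 2e-05, adjusted p = 2.4e-05) and r without its 2 farthest sera was 0.91. For miR-23a-3p and miR-27a-3p r was 0.90 (permutation p = 9e-05, adjusted p = 9e-05), rho was 0.90 (permutation p = 5e-05, adjusted p = 5e-05) and r without its 2 farthest sera was 0.89. Raw Ct, which also carries the amount of RNA, gave r of 0.97 to 0.98 (permutation p = 1e-05, adjusted p = 1.5e-05 for each pair), and adjustment covered these 6 relations. Within the tumor-free sera alone r of the levels was 0.84 to 0.96, and within the tumor sera 0.94 to 0.95 (n = 7 each).

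The assays most like each member were ranked by r of level with group means taken off, over the 17 sera and the other 251 assays, and were mostly the remaining products of both copies. For miR-23a-3p the order was miR-23b-3p (r = 0.98), miR-24-3p (0.95), miR-27a-3p (0.90), miR-27b-3p (0.89) and the rat assay of miR-214-3p (0.87), a miRNA of connective tissue cells. For miR-27a-3p it was miR-27b-3p (0.94), miR-24-3p (0.92), miR-23a-3p (0.90), miR-23b-3p (0.87) and the rat assay of miR-146b-5p (0.83). For miR-24-3p it was miR-23a-3p (0.95), miR-23b-3p (0.94), miR-27a-3p (0.92), the rat assay of miR-214-3p (0.89) and miR-27b-3p (0.87). With group means kept in, a ranking added after the data were seen, the order changed. The first 3 for miR-23a-3p were then miR-24-3p (r = 0.93), miR-27a-3p (0.93) and miR-23b-3p (0.91). For miR-27a-3p they were miR-23a-3p (0.93), miR-24-3p (0.90) and the rat miR-146b-5p assay (0.85), with miR-27b-3p in place 5 (0.84). For miR-24-3p they were miR-23a-3p (0.93), miR-23b-3p (0.91) and miR-27a-3p (0.90). With group means taken off, the median r over the 251 assays was 0.09, 0.04 and 0.06 for the 3 members. The levels of all these assays are centered on the same panel mean. The other arm of the miR-27a hairpin, miR-27a-5p, did not rank high: its r was 0.43 with miR-23a-3p, 0.25 with miR-27a-3p and 0.40 with miR-24-3p. That arm had Ct values from 32.81 to 36.02, and no value of the panel exceeded 37.

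For the comparison of both copies 2 Ct values of the same serum were subtracted, which cancels the amount of RNA per serum. An offset between the 2 panels run per serum would cancel only if both assays sat on the same panel. That was not tested. miR-23a-3p minus miR-23b-3p was -1.17, -1.20 and -1.50 cycles in the 3 wild-type sera. In tumor-free sera it ran from -2.04 to -1.60 around a median of -1.96, and in tumor sera from -2.16 to -1.94 around -2.09. All 14 transgenic sera lay below all 3 wild-type sera, that is, with more miR-23a-3p relative to miR-23b-3p than in wild type. The gap was narrow: it lay between -1.60 in tumor-free replicate 2 and -1.50 in wild-type replicate 3. The means were -1.29 ± 0.18 (SD, n = 3), -1.92 ± 0.15 (n = 7) and -2.07 ± 0.09 (n = 7). The tumor-free mean differed from wild type by -0.63 cycles (1.55-fold, exact permutation p = 0.00833, adjusted p = 0.025) and the tumor mean by -0.78 (1.72-fold, exact permutation p = 0.00833, adjusted p = 0.025). Adjustment covered 12 two-sided tests, and with 3 mice against 7 no exact p can be smaller than 0.00833.

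The miR-27 family showed the same shift. miR-27a-3p minus miR-27b-3p was 1.94, 2.01 and 2.16 cycles in wild-type sera, 0.93 to 1.30 (median 1.26) in tumor-free sera and 0.69 to 1.57 (median 1.08) in tumor sera. Again all 14 transgenic sera lay below all wild-type sera, with no serum between 1.57 and 1.94. The means were 2.04 ± 0.11 (SD, n = 3), 1.19 ± 0.15 (n = 7) and 1.17 ± 0.31 (n = 7). Tumor-free mice differed from wild type by -0.85 cycles (1.80-fold, exact permutation p = 0.00833, adjusted p = 0.025) and tumor mice by -0.87 (1.83-fold, exact permutation p = 0.00833, adjusted p = 0.025). Both pairs of paralogs were thus among the pairs that did not overlap. Of all 31626 pairs on the panel, 12.9% did not overlap between tumor-free and wild-type sera, 8.84% between tumor and wild-type sera, and 4.62% between the 14 transgenic and the 3 wild-type sera. Non-overlap against 3 wild-type mice was therefore common among pairs of unlike miRNAs.

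Between tumor and tumor-free mice the paralogs did not pass. miR-23a-3p minus miR-23b-3p differed by -0.15 cycles (exact permutation p = 0.0251, adjusted p = 0.0601) and miR-27a-3p minus miR-27b-3p by -0.02 (exact permutation p = 0.875, adjusted p = 0.875), with overlapping groups. Among all pairs 0.999% did not overlap in this comparison. How far each assay also reads the other copy was not stated in the sources used here. Without wild-type replicate 1, 2 or 3 both pairs kept their direction against wild type but not their call (exact permutation, adjusted p = 0.0667 each time). An exact p below 0.0278 is then not possible. Without tumor-free replicate 3 or tumor replicate 3, miR-23a-3p minus miR-23b-3p passed between tumor and tumor-free mice (-0.17 cycles in each case, exact permutation, adjusted p = 0.0406 and 0.0294). In 4 sera (tumor-free replicates 4, 5 and 7 and tumor replicate 1) the last decimals of the values follow 1 pattern, in the other 13 sera 2 patterns. Without those 4 the differences from wild type were -0.59 and -0.76 for the miR-23 pair and -0.81 and -0.83 for the miR-27 pair. Adjusted p of the exact permutation tests ran from 0.0714 to 0.163. The smallest possible exact p was 0.0286 for 3 wild-type against 4 tumor-free mice and 0.0119 for 3 against 6 tumor mice.

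**Figure D3:**
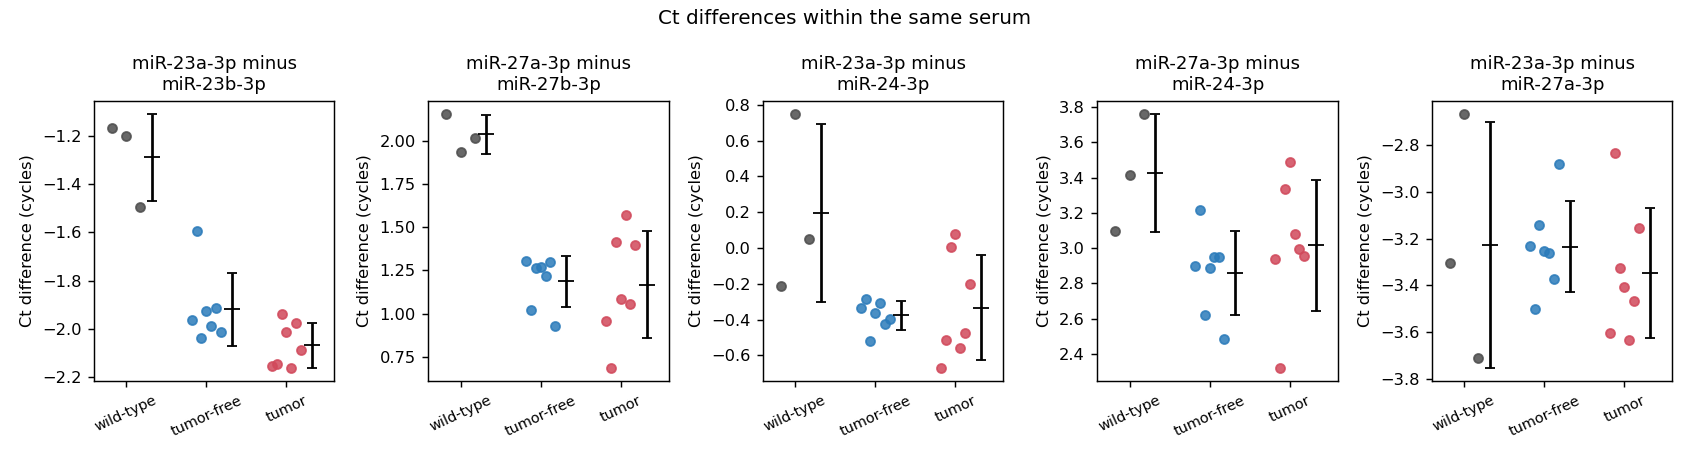
Ct differences in cycles between 2 assays of the same serum (points), by group, with mean and SD (bars) for 5 pairs. A lower value means more of the first-named miRNA. Both differences of a copy against b copy are lower in all 14 transgenic sera than in the 3 wild-type sera, whereas miR-23a-3p minus miR-27a-3p overlaps in all groups.

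Within the cluster none of the 9 tests of proportions passed. miR-23a-3p minus miR-27a-3p was -3.71, -3.30 and -2.66 cycles in wild-type sera, -3.50 to -2.88 (median -3.25) in tumor-free sera and -3.64 to -2.83 (median -3.41) in tumor sera, with all groups overlapping. Tumor mice differed from tumor-free mice by -0.11 and from wild type by -0.12, and tumor-free mice from wild type by -0.01 (exact permutation p from 0.396 to 0.975, adjusted p from 0.594 to 0.975). miR-23a-3p minus miR-24-3p was -0.21, 0.05 and 0.75 in wild-type sera and -0.52 to -0.28 in tumor-free sera, without overlap. That difference of -0.57 did not pass (exact permutation p = 0.00833, adjusted p = 0.075 over 9 tests). miR-27a-3p minus miR-24-3p differed by the same -0.57 between tumor-free and wild-type mice (exact permutation p = 0.0167, adjusted p = 0.075), with overlap. In tumor mice these 2 quantities differed from wild type by -0.53 (exact permutation p = 0.0833, adjusted p = 0.25) and -0.41 (exact permutation p = 0.133, adjusted p = 0.3). From tumor-free mice they differed by 0.04 and 0.16 (adjusted p = 0.796 and 0.594).

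miR-24-3p, which both loci encode, was also set against the b copies, a comparison chosen after the values were seen. miR-24-3p minus miR-23b-3p was -1.49 ± 0.50 (SD, n = 3) in wild-type sera, -1.54 ± 0.12 (n = 7) in tumor-free sera and -1.74 ± 0.24 (n = 7) in tumor sera. miR-24-3p minus miR-27b-3p was -1.39 ± 0.41, -1.67 ± 0.26 and -1.85 ± 0.31 in the same order. miR-23b-3p minus miR-27b-3p was 0.10 ± 0.34, -0.13 ± 0.35 and -0.11 ± 0.30. None of these 9 exact permutation tests passed, with unadjusted p from 0.0917 to 0.928. The smallest adjusted p was 0.414.

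The other arms gave wider values. miR-27a-3p minus miR-27a-5p was -7.00 ± 1.74 (SD, n = 3), -7.16 ± 0.46 (n = 7) and -7.65 ± 0.84 (n = 7) cycles in wild-type, tumor-free and tumor sera. miR-24-3p minus miR-24-1-5p was -9.89 ± 0.62 (n = 3), -10.7 ± 1.21 (n = 7) and -10.8 ± 0.59 (n = 5), the last over the tumor sera in which the rat assay gave a value. None of these 6 exact permutation tests passed (adjusted p from 0.143 to 0.873).

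Relative to the panel mean, each member's mean was lowest in wild-type and highest in tumor sera, and no step of that order passed. The order turned under other scalings: with raw Ct or spike-ins both transgenic groups lay below wild type for each member, and with quantile normalization tumor sera lay below tumor-free sera for miR-23a-3p and miR-24-3p. miR-23a-3p had levels of 3.82, 5.27 and 5.90 in wild-type sera, 5.28 to 6.03 (median 5.75) in tumor-free sera and 5.10 to 7.21 (median 6.25) in tumor sera. Its mean level was 5.0 ± 1.07 (SD, n = 3), 5.73 ± 0.26 (n = 7) and 6.20 ± 0.73 (n = 7), with overlap throughout. miR-27a-3p stood at 1.77 ± 0.74, 2.50 ± 0.39 and 2.86 ± 0.84, and miR-24-3p at 5.20 ± 0.57, 5.36 ± 0.22 and 5.87 ± 0.54, in the same order of groups. Wild-type replicate 2 was the lowest serum for each member (3.82, 1.16 and 4.57). Tumor replicate 1 was highest for miR-23a-3p and miR-24-3p (7.21 and 6.54), and tumor replicate 2 for miR-27a-3p (4.08).

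**Figure D4:**
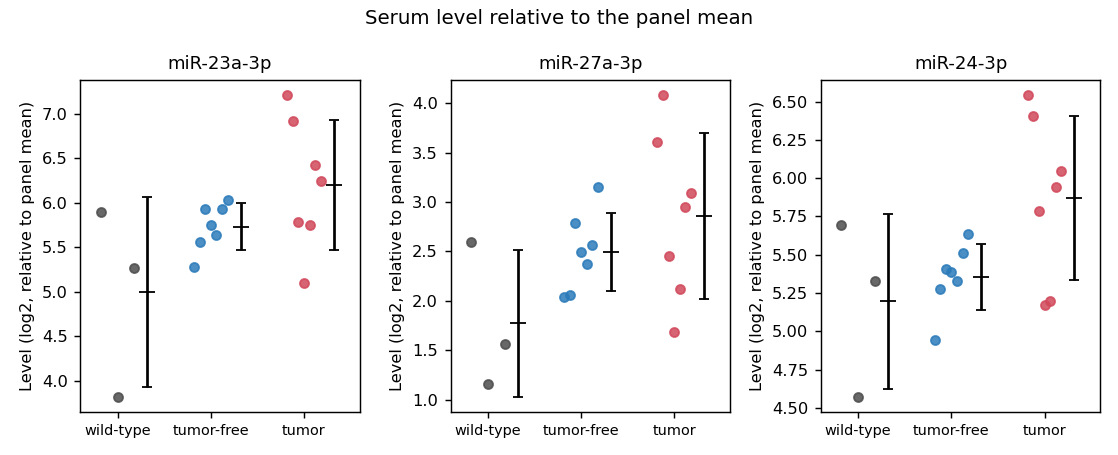
Level of each member (log2, panel mean Ct minus its own Ct) in each serum (points), by group, with mean and SD (bars). Tumor sera spread over 1.37 to 2.40 log2 units and tumor-free sera over 0.69 to 1.11, and all groups overlap.

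Across the 338 assays tested, limma called 1.48% between tumor and tumor-free, 0.592% between tumor-free and wild-type and 8.28% between tumor and wild-type mice at an adjusted p under 0.05. None of the 3 members was called in any comparison. Between tumor and wild-type mice 2 of them had an unadjusted p under 0.05 in limma, as did 85 of all 338 assays. Between tumor and tumor-free mice the level of miR-23a-3p differed by 0.47 (SE 0.38, adjusted p = 0.588). miR-27a-3p differed by 0.36 (SE 0.39, adjusted p = 0.709) and miR-24-3p by 0.52 (SE 0.32, adjusted p = 0.429). The median over all assays was 0.14. Between tumor-free and wild-type mice the differences were 0.73 for miR-23a-3p, 0.72 for miR-27a-3p and 0.16 for miR-24-3p (adjusted p = 0.401, 0.41 and 0.838), against a median of 0.03. Between tumor and wild-type mice they were 1.20 (2.30-fold, SE 0.50, adjusted p = 0.141), 1.08 (2.12-fold, SE 0.50, adjusted p = 0.187) and 0.67 (1.60-fold, SE 0.41, adjusted p = 0.32), against a median of 0.19. These comparisons share groups and are not independent. With raw Ct the median over all assays itself moved to -1.07 between tumor-free and wild-type and -1.22 between tumor and wild-type mice. Without wild-type replicate 2 all differences from wild type were lower. Between tumor-free and wild-type mice they were then 0.14 for miR-23a-3p, 0.42 for miR-27a-3p and -0.15 for miR-24-3p. Between tumor and wild-type mice they were 0.62, 0.78 and 0.36 in the same order. Leaving out wild-type replicate 1 raised all of them. Leaving out wild-type replicate 3 raised those of miR-23a-3p and miR-24-3p and lowered those of miR-27a-3p.

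The remaining products of both copies were not called either. miR-23b-3p differed by 0.32, 0.10 and 0.43, and miR-27b-3p by 0.34, -0.13 and 0.21 for the same 3 comparisons in the order above. miR-27a-5p differed by -0.13, 0.56 and 0.43, and the rat miR-24-1-5p by 0.35, -0.60 and -0.26. Their adjusted p in limma ranged from 0.554 to 0.891.

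Marker miRNAs of cells that release RNA into serum were present. The red blood cell markers miR-451a and miR-16-5p had mean Ct values of 19.1 and 19.8, and the hepatocyte marker miR-122-5p 22.0. Against wild type, 0 of 5 red blood cell markers had a difference above 0 in tumor-free or tumor mice, with medians of -1.17 and -0.65 and none called. The medians over all assays were 0.03 and 0.19. Between tumor and tumor-free mice all 5 were above 0 (median 0.36, against 0.14 over all assays), again with none called. Of the 6 platelet and myeloid markers, miR-21a-5p and miR-223-3p had the lowest mean Ct (22.5 and 23.7). The 6 had a median difference from wild type of 0.61 in tumor-free mice, with 0 called. In tumor mice their median was 1.03, with 2 called higher and 1 lower. Of the 5 hepatocyte markers, 3 were called lower between tumor and wild-type mice (median -1.75) and 1 between tumor and tumor-free mice (median -1.39). Over all 338 assays limma called 8.28% between tumor and wild-type mice and 1.48% between tumor and tumor-free mice. None of 4 lymphocyte or 6 muscle markers was called in any comparison, with medians against wild type of 0.97 and 1.95 in tumor-free mice and 0.72 and 1.73 in tumor mice. Their part in the members' values was not tested. Of the 2 endothelial markers, both strands of miR-126a, 0 had a difference above 0 in any comparison and 0 were called.

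Within groups the members' levels ran against the red blood cell markers. Between tumor and tumor-free mice, by contrast, all 3 members and all 5 markers had differences above 0, none of them called. Over the 17 sera with group means taken off, r with the mean level of these 5 markers was -0.78 for miR-23a-3p (permutation p = 0.00193, adjusted p = 0.00658). Its rho was -0.80 (permutation p = 0.00236, adjusted p = 0.00472), and r without its 2 farthest sera, chosen anew for each member, was -0.66. For miR-27a-3p r was -0.79 (permutation p = 0.00252, adjusted p = 0.00658), rho was -0.86 (permutation p = 0.00048, adjusted p = 0.00144) and r without its 2 farthest sera was -0.75. For miR-24-3p r was -0.77 (permutation p = 0.00329, adjusted p = 0.00658), rho was -0.88 (permutation p = 0.00029, adjusted p = 0.00144) and r without its 2 farthest sera was -0.66. Within tumor sera r was -0.83 to -0.81 and within tumor-free sera -0.53 to -0.33 (n = 7 each). With raw Ct, sign turned so that higher means more RNA, in place of levels on both sides, r turned to 0.22, 0.26 and 0.36 (adjusted permutation p from 0.369 to 0.493), so the inverse relation was seen for levels relative to the panel and not for raw Ct. Marker and member levels share the same panel mean. Relations with the panel mean Ct did not pass on levels (r = 0.16, -0.0013 and 0.23 for miR-23a-3p, miR-27a-3p and miR-24-3p, adjusted permutation p from 0.708 to 0.997). Adjustment covered these 6 relations.

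**Figure D5:**
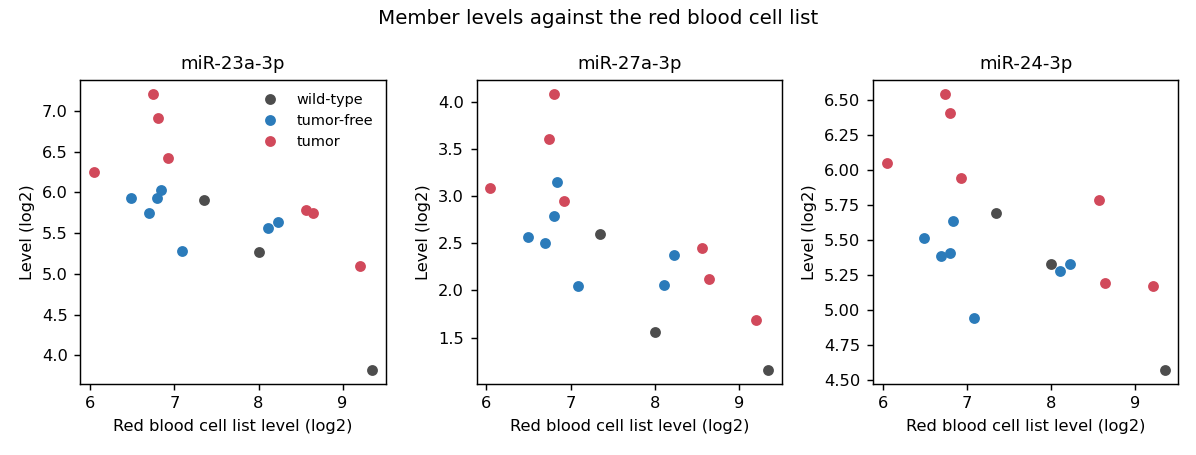
Level of each member (log2, vertical axis) against the mean level of the 5 red blood cell markers (log2, horizontal axis) in the 17 sera, colored by group. Points fall from upper left to lower right in each panel (r = -0.78, -0.79 and -0.77 with group means taken off).

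As the reference of the hemolysis index, the members were exchanged for each other. The index is the reference's Ct minus that of miR-451a, so a higher value means more miR-451a relative to the reference. With miR-23a-3p it was 5.61 ± 2.07 (SD, n = 3), 4.38 ± 0.84 (n = 7) and 3.97 ± 1.97 (n = 7) in wild-type, tumor-free and tumor sera. With miR-24-3p it was 5.41 ± 1.58, 4.76 ± 0.78 and 4.31 ± 1.77, and with miR-27a-3p 8.83 ± 1.74, 7.61 ± 0.95 and 7.32 ± 2.07. The order of the groups was the same with each reference. All 3 indices share the miR-451a Ct and their references moved together closely, so this sameness was largely built in. Against the panel mean, the level of miR-451a was 10.61 ± 1.02 (wild-type), 10.11 ± 0.70 (tumor-free) and 10.18 ± 1.33 (tumor). By that measure tumor sera were not the lowest. The difference between tumor-free and wild-type mice was -1.23 with miR-23a-3p, -1.22 with miR-27a-3p and -0.65 with miR-24-3p. None of the 9 exact permutation tests passed (smallest unadjusted p 0.192, adjusted p from 0.6 to 0.736). Wild-type replicate 2 had the highest miR-23a-3p index, 7.82, and tumor replicate 1 the lowest, 2.21. Over all sera the SD of the level was 0.75 for miR-23a-3p, 0.74 for miR-27a-3p and 0.50 for miR-24-3p. From the lowest SD upward they ranked 71, 67 and 9 among 252 assays, whose median was 0.93.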

How the data were processed

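Per the labels' protocols, RNA from 50 µL of serum was copied to cDNA and measured by SYBR Green PCR over 40 cycles on 2 ready-made serum panels. The deposited values are Ct in cycles, not normalized per the file's name. Threshold, plate calibration and detection limit are not given in the sources used here. Empty cells were taken as not detected. Between 312 and 356 of 357 miRNA assays were detected per serum. No sera held the same values (smallest SD of the difference between 2 sera 0.841 cycles). Ct gives no read depth; the number of mice limits the precision.

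Computed here: levels (mean Ct of the 252 assays detected in every serum minus the assay's Ct), then lmFit and eBayes in limma 3.58.1 (R 4.3.3) with all 3 groups in 1 fit, for the 338 assays detected in at least 2 wild-type, 5 tumor-free and 5 tumor sera, two-sided, with Benjamini-Hochberg adjustment within each comparison and a threshold of 0.05. The fit was tested on simulated data. For Ct differences and indices, group means were tested by exact permutation, two-sided, and adjusted within each family. Correlations used 100000 reorderings within groups. Python 3.11.15, numpy 2.4.6, scipy 1.17.1, pandas 2.3.3 and matplotlib 3.10.9 were used. Sequences are from RefSeq tables of GRCm38.p6, in which all 3 members matched.

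Members, marker lists and tests were chosen with earlier results of these data known. Named were the members, the other products of both copies, the 5 assays with the highest r to each member, the marker of the index and the most abundant markers of a list. Each label names a mouse and all labels differ, so replicates were taken as separate mice, numbered in label order. Some transgenic mice share a number in their labels whose meaning is not stated; it was tried as a random block. Tumor replicate 5 carries a question mark in its label and was kept in its group. Alternatives were other scalings, filters, treatments of missing values, variance models, a red blood cell covariate and left-out sera.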

Additional observations from a re-analysis of the deposited data

Results flagged for a closer look

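In 54 groups of values (members, other products of both copies, their Ct differences and the indices in 7 or 5 sera), 4 held a serum far from the others, and chance alone gives about 1 in 20. The Ct of the rat miR-24-1-5p assay in tumor replicate 7 was 32.3, with the next value at 34.9. The level of miR-27a-5p in tumor replicate 1 was -2.72, with the next at -4.65. miR-23a-3p minus miR-23b-3p in tumor-free replicate 2 was -1.60 cycles, with the next at -1.91, and this serum lay closest to the wild-type sera. In the same serum miR-23b-3p minus miR-27b-3p was -0.88, with the next at -0.16.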

How the results depend on the processing

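No member was called under any setting tried: over 297 values (3 members, 3 comparisons, all settings) the smallest adjusted p in limma was 0.058. Directions did move. Between tumor-free and wild-type mice, miR-23a-3p, miR-27a-3p and miR-24-3p differed by -0.29, -0.30 and -0.86 with raw Ct, by -0.41, -0.42 and -0.98 with spike-ins, and miR-24-3p by -0.20 with the red blood cell list as a covariate. Between tumor and wild-type mice they differed by -0.18, -0.30 and -0.71 with raw Ct and by -0.066, -0.19 and -0.60 with spike-ins. Between tumor and tumor-free mice, quantile normalization gave -0.34 for miR-23a-3p and -0.018 for miR-24-3p, and raw Ct -0.0018 for miR-27a-3p. Leaving out 1 serum at a time gave -0.15 to 0.41 for miR-24-3p between tumor-free and wild-type mice.

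The number of assays called between tumor and tumor-free mice (5, with 57 at an unadjusted p under 0.05) was 0 with reference miRNAs (30 unadjusted), raw Ct (17), spike-ins (14), exact permutation (57) and without the 4 sera of 1 decimal pattern (30), and 8 with the red blood cell covariate. Between tumor-free and wild-type mice (2, with 76 unadjusted) it was 0 with raw Ct (63 unadjusted), spike-ins (73) and exact permutation (85), 1 with the panel median, reference miRNAs, trend and robust variance and without those 4 sera, and 4 with missing values set to a Ct of 37 or the covariate. Between tumor and wild-type mice (28, with 85 unadjusted) it was 10 with reference miRNAs, 15 with raw Ct and 8 with spike-ins. It was 14 without those 4 sera and 0 with exact permutation (45 unadjusted). No exact p can be smaller than 0.00833 with 3 mice against 7. Over 338 assays a p of that size passes adjustment only where many assays share it. The counts of 0 by exact permutation against wild type therefore cannot tell whether the limma calls hold. With 1 serum left out the numbers called in limma ran from 2 to 10, 1 to 9 and 10 to 39. The causes were not tested.

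Differences of medians, chosen after the data were seen, gave -0.76 and -0.88 for miR-23a-3p minus miR-23b-3p and -0.75 and -0.93 for miR-27a-3p minus miR-27b-3p (tumor-free and tumor against wild type, adjusted exact p = 0.0839 each). Without the 4 sera, also chosen afterwards, they were -0.59, -0.76, -0.81 and -0.83 in that order. With 1 serum left out the miR-23 pair ran from -0.73 to -0.57 and -0.88 to -0.72 against wild type and -0.17 to -0.095 between tumor and tumor-free mice. The miR-27 pair ran from -0.90 to -0.79, -0.94 to -0.79 and -0.087 to 0.061. Both pairs stayed called against wild type without any 1 of the 14 transgenic sera, and lost the call without any 1 of the 3 wild-type sera. Leaving out a serum of the group not compared cannot change a difference, such as a tumor serum for tumor-free against wild type. The other differences whose sign moved with 1 serum left out were, between tumor and tumor-free mice, miR-23a-3p minus miR-24-3p (-0.025 to 0.099), miR-23b-3p minus miR-27b-3p (-0.11 to 0.079), miR-24-3p minus miR-24-1-5p (-0.53 to 0.072) and miR-27a-3p minus miR-451a (-0.82 to 0.073). Against wild type, tumor-free and tumor mice in turn, they were miR-23a-3p minus miR-27a-3p (-0.25 to 0.27 and -0.36 to 0.16), miR-24-3p minus miR-23b-3p (-0.29 to 0.21 and -0.48 to 0.016), miR-27a-3p minus miR-27a-5p (-1.10 to 0.62 and -1.59 to 0.13), and, for tumor-free mice, miR-24-3p minus miR-451a (-1.39 to 0.18). miR-23a-3p minus miR-27a-3p was 0.0078 between tumor and tumor-free mice without the 4 sera and 0.051 by medians between tumor-free and wild-type mice. By medians miR-23a-3p minus miR-24-3p was -0.11 between tumor and tumor-free mice, and the index of miR-27a-3p was 0.024 with the red blood cell list in place of miR-451a.

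With minus Ct in place of levels, so that a higher value means more RNA, r of the members with the red blood cell list was 0.22, 0.26 and 0.36. With the panel mean Ct, where a higher value means less RNA, it was -0.84, -0.86 and -0.92, so member Ct and panel mean Ct rose together (adjusted permutation p = 0.00074, 0.00074 and 0.00018). Without the 4 sera miR-23a-3p had r of -0.071 with the panel mean. The replicate numbers name mice in label order and pair none. The number in the transgenic labels as a random block (consensus correlation 0.0703) gave 6, 3 and 28 called assays and changed no call of a member. The main limits are 3 wild-type mice, no stated batch, and unstated thresholds and calibration.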
